A study of Mus musculus with 58 samples.

Results

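The effect of castration was measured in DPP4+ adipose stem cells (ASC2) of male inguinal white adipose tissue (iWAT). The comparison used the 8 libraries titled castration ASC2 and the 8 titled male control ASC2, 16 of the 58 libraries of the series, and every gene that passed a filter on low counts. Both groups were C57BL6/J mice that were fasted for 4 hours and terminated at 10 weeks of age, and the castrated group had its testes removed at 4 weeks. No transgene or drug was given to either group. ASC2 were sorted by FACS as cells that carried CD34 and DPP4 on their surface and lacked CD45 and CD31, so blood cells and endothelium were meant to be left out. The sorted cells were sequenced in bulk by Smart-seq3, a full-length cDNA method in which some reads carry a molecular identifier. The labels do not say which animal each library came from. The paper's methods give 8 castrated males and 8 male controls, and a figure legend of the paper counts samples as biological replicates. The p-values measure the spread between these libraries. Control libraries took plate rows A to H and castrated libraries rows I to P, so that plate row and castration cannot be told apart.

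Adipose stem cells are fibroblast-like cells of the stroma that give rise to adipocytes and produce extracellular matrix. The DPP4+ subset lies in the fibrous tissue that surrounds the fat lobules and is regarded as an early, uncommitted progenitor. Castration removes testicular testosterone, a steroid that acts through a ligand-activated transcription factor, and also the oestrogen that aromatase makes from it.

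Total counts ranged from 299316 to 1421518 a library, with medians of 834004 in control and 675728 in castrated libraries, and this depth limits what could be seen of weakly expressed genes. Sort markers were present in both groups. *Dpp4* had at least 40 reads in every library. Some libraries stood apart or went against their labels. The 4 control libraries of wells E1 to H1 held 27 to 71 reads of the female transcript *Xist*, summed Y-chromosome transcripts of 12.8 to 33.2 CPM, the count scaled to the size of the library, against 111 to 128 in the other 4 control libraries, and summed mammary epithelium markers of 84.5 to 176 against 11.2 to 25.6 CPM. The castrated libraries held 0 to 5 *Xist* reads. The castrated libraries of wells I1 and J1 held 15 and 17 reads of *Wt1*, a mesothelial transcription factor of visceral fat, where the other 14 libraries held none. The same pair had 11.2 to 12.2 CPM of summed *Hox* genes 9 to 13 against 62.3 to 115 CPM elsewhere, and 6037 to 6865 CPM of summed macrophage and immune markers against 745 to 2651. Ribosomal protein transcripts made up 1.88% of reads in control library D1 and under 5% in C1, F1 and J1. The fits were therefore repeated without 4 sets, which were the *Xist* libraries, the *Wt1* libraries I1 and J1, both of these, and the 4 libraries low in ribosomal protein reads. Named genes lost calls in each of these fits, most often in the last, as given beside many of them, and the part that these libraries play was not tested.

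**Figure D1:**
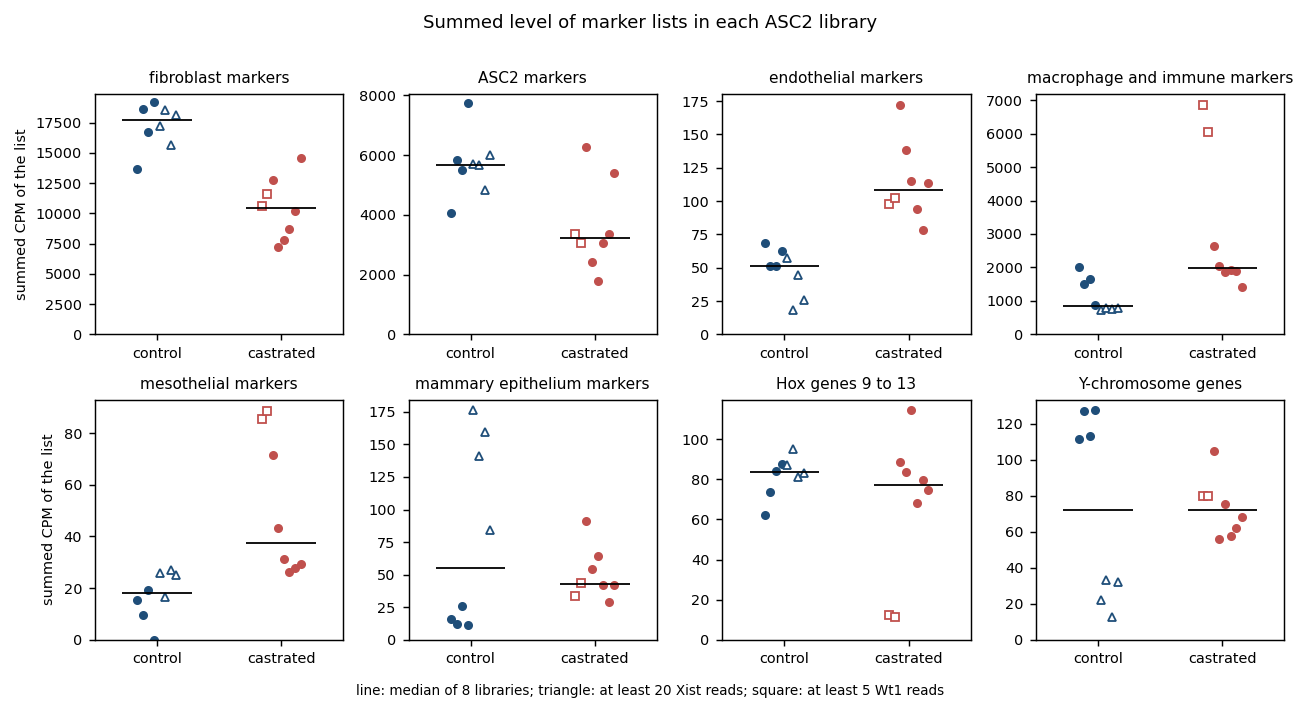
Library measures of the 16 ASC2 libraries, 1 point a library and a line at each group's median, with levels in CPM. Triangles mark the 4 control libraries with at least 20 *Xist* reads and squares the castrated libraries I1 and J1 with at least 5 *Wt1* reads, and the endothelial marker sum is the measure in which the groups do not overlap.

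Castration lowered more genes than it raised. Of 11046 genes tested with edgeR's quasi-likelihood test, 202 were lower (1.83%) and 95 were higher (0.860%) in castrated ASC2 at a Benjamini-Hochberg adjusted p below 0.05, and the remaining 10749 did not pass. The genes that fell included the oestrogen sulfotransferase *Sult1e1*, complement *C7* and the decoy receptor *Il1r2*, while the genes that rose included *Egfl7*, *Slc25a3*, *Hmox1* and transcripts of leukocytes and endothelium. In 43 of the 202 lower genes and 19 of the 95 higher genes, the 8 castrated libraries did not overlap the 8 controls. Over all 11046 tested genes 48 lay lower and 22 higher without overlap. Calls and overlap come from the same values, so the overlap is no separate support for a call. The median log2 difference over all tested genes was 0.03. An unadjusted p below 0.05 was reached by 2100 of the 11046 tested genes, both directions together. The unadjusted counts given for gene lists below stand against that share, and the edgeR calls against 1.83% lower and 0.860% higher. Over all tested genes DESeq2 called 401 lower and 266 higher, and limma voom 160 and 85. Without the control libraries with *Xist* reads 298 genes were lower and 64 higher, without I1 and J1 171 and 50, without both sets 286 and 70, and without the 4 libraries low in ribosomal protein reads 54 and 13. Of the 202 lower genes 39 kept their call in all of these fits, and 9 of the 95 higher genes did.

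**Figure D2:**
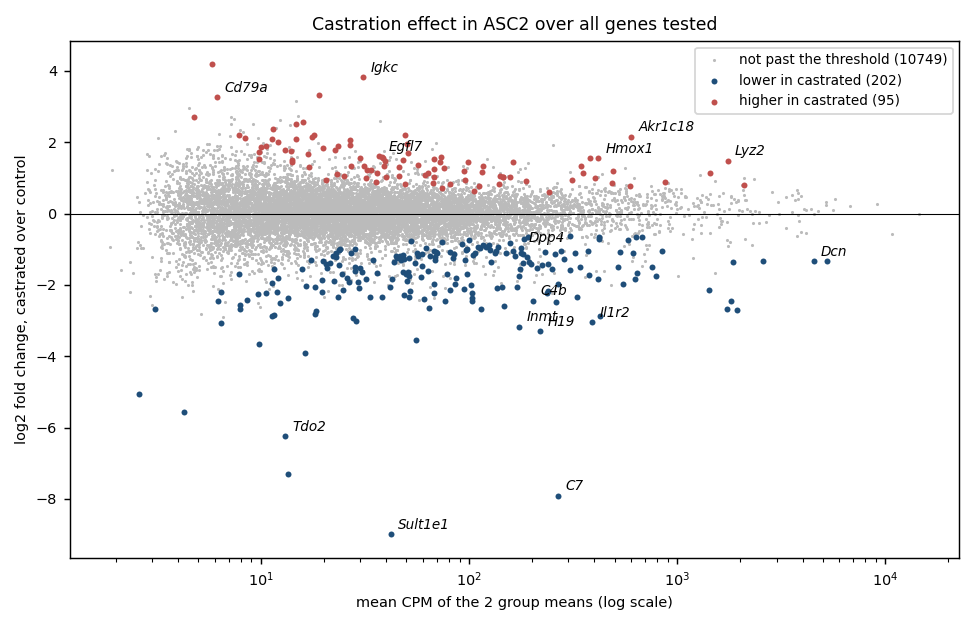
Log2 difference between castrated and control ASC2 against the mean level of each tested gene in CPM on a log axis, with genes past the adjusted threshold coloured by direction. The 202 lower genes reach further from 0 than the 95 higher genes, with *Sult1e1* and *C7* at the lower edge.

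The largest falls were those of *Sult1e1* and *C7*. SULT1E1 sulfates and so inactivates oestrogens. C7 is a component of the complement membrane attack complex. The 250 bases upstream of their annotated starts are shown because the loss of their transcripts was close to complete and because steroid receptor motifs were looked for there. Sequences are from RefSeq on GRCm38.p6, 5′ to 3′ on the strand of the gene, which is the minus strand for both.
*Sult1e1*, chr5:87591612-87591861: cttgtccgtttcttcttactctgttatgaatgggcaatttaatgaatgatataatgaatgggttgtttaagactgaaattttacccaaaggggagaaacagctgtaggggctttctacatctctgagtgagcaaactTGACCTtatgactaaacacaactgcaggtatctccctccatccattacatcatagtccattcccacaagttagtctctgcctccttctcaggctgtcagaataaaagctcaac
*C7*, chr15:5063774-5064023: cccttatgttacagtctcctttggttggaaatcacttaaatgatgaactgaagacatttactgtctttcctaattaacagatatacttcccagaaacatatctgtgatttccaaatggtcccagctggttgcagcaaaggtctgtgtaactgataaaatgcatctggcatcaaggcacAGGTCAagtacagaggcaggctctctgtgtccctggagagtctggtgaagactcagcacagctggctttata
Capitals mark AGGTCA, the core motif of many nuclear receptors, on either strand; this motif was chosen after the sequences had been read. It was present in 12.7% of 8587 tested genes with a matched promoter and in 12.9% of the 147 lower genes with one. The steroid receptor core motif TGTTCT was in neither promoter. On either strand it was found in 14.3% of lower, 13.1% of higher and 12.7% of all matched genes, and the palindrome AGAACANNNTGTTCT in 1 of the 8587. These matches describe letters in short windows and say nothing on binding.

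*Sult1e1* (ENSMUSG00000029272.9) ranged from 35.1 to 155 CPM in the control libraries, with a median of 87.6, and had no read in any castrated library. The 543 control reads against 0 put the level at least 150-fold lower after castration, with a floor of 3 counts over the castrated group (adjusted p = 9.14e-07, edgeR). *C7* (ENSMUSG00000079105.5) ranged from 212 to 1673 CPM, median 330, in control and from 0 to 7.63, median 1.36, in castrated libraries. The highest control value was in library D1, and the lowest control was still far above every castrated library. The log2 difference of *C7* was -7.91 (SE 0.61, adjusted p = 7.62e-08, edgeR). *Tdo2*, the first enzyme of tryptophan breakdown to kynurenine, had 12.8 to 39.2 CPM, median 25.1, in control libraries and a single read among the castrated ones. The ratio of 172 reads to 1 was 143, with a 95% interval of 25.3 to 5670 that covers counting error only (adjusted p = 1.91e-07, edgeR).

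Other genes fell to a lower but readily measured level, and none of the 8 named in this paragraph overlapped between the groups. *Il1r2*, a decoy receptor that captures interleukin 1, had 468 to 948 CPM, median 670, in control and 42.3 to 137, median 85.8, in castrated libraries. This was an 8.26-fold fall (log2 -3.05, SE 0.26, adjusted p = 1.91e-07, edgeR). *Slco2b1*, an organic anion transporter that carries steroid sulfates, had 33.1 to 64.3 CPM, median 52.2, against 2.50 to 11.1, median 5.49. It fell 8.08-fold (adjusted p = 9.14e-07, edgeR). *Inmt*, an indole and amine N-methyltransferase, had 129 to 510 CPM, median 368, against 7.49 to 61.1, median 35.9, an 8.99-fold fall (adjusted p = 9.57e-06, edgeR). The tight junction gene *Cldn10* fell 7.66-fold, from a median of 43.5 to one of 7.07 CPM, and *Gdf10*, a secreted factor of the BMP family, 7.21-fold, from 21.2 to 1.98 CPM. *Adh1*, an alcohol and retinol dehydrogenase, had 90.4 to 164 CPM, median 115, against 22.8 to 50.3, median 35.8. It fell 3.26-fold (adjusted p = 2.53e-05, edgeR). *Dkk3*, a secreted protein of the Dickkopf family, fell 3.96-fold, from a median of 106 to 30.7 CPM (adjusted p = 0.00109, edgeR). *Cfb*, complement factor B, fell 2.92-fold, from a median of 275 to 77.2 CPM (adjusted p = 0.00138, edgeR).

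**Figure D3:**
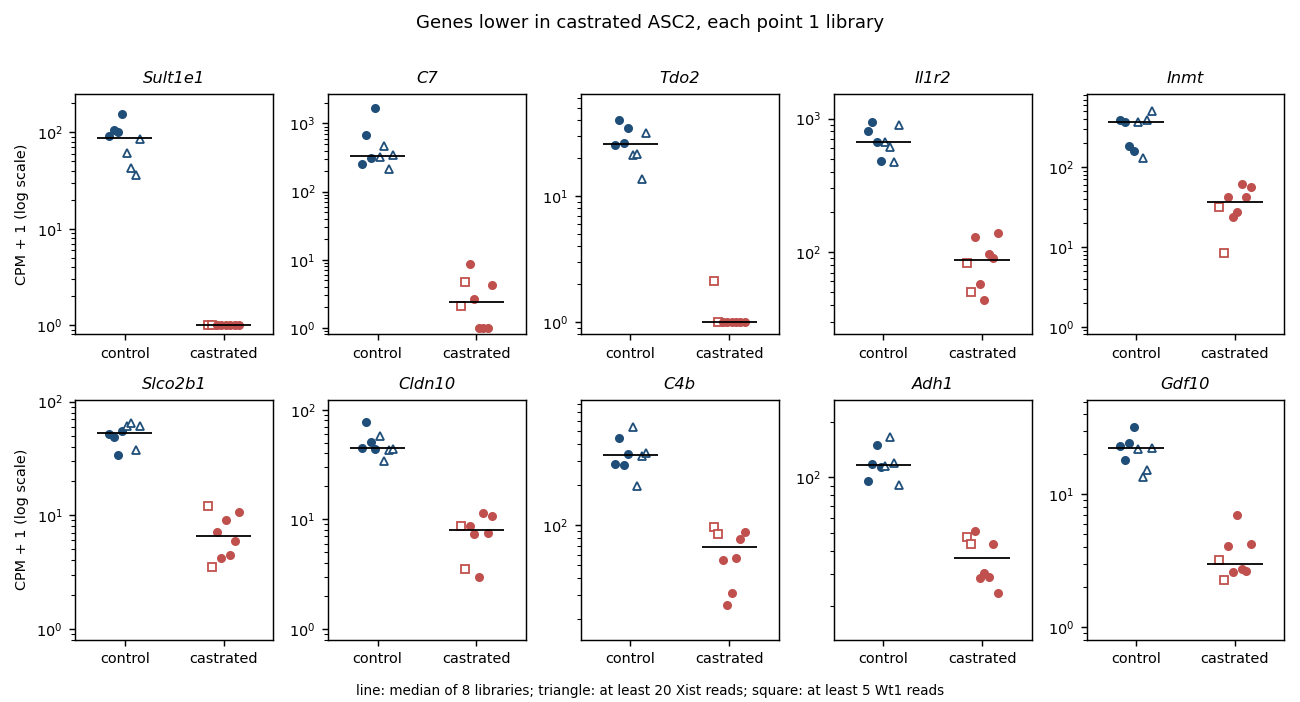
Level of genes lower in castrated ASC2, as CPM plus 1 on a log axis, 1 point a library and a line at each group's median. Castrated libraries of *Sult1e1* all lie at 0 CPM, the bottom of the axis, and those of *Il1r2* lie between 42.3 and 137, below every control; triangles mark libraries with at least 20 *Xist* reads and squares those with at least 5 *Wt1* reads.

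Several other large falls came with overlap between the groups, and for some of them library D1 held much of the difference. The imprinted RNA *H19* ranged from 45.4 to 935 CPM, median 327, in control and from 7.76 to 86.3, median 42.0, in castrated libraries (log2 -3.29, SE 0.48, adjusted p = 4.57e-04, edgeR). *Ccdc80*, a secreted matrix protein of fat, had 13521 CPM in D1 where the control median was 1448 and the castrated median 290. Its adjusted p of 0.0249 became 0.0698 without D1, 0.0551 without N1 and 0.0521 without O1 (edgeR). *Tug1*, *Dnm3os*, *Dpysl2* and *Phactr2* had their highest value in D1 as well. *Dpysl2* lost its call without D1 (adjusted p = 0.0785) and also without F1, I1, M1, N1 or O1, and *Phactr2* without D1 alone (0.0523), by edgeR. *Dbpht2*, *Ramp1* (part of the receptor of the neuropeptide CGRP), *Lrrc15*, *Mcpt8* and *Anxa8* completed the largest falls, between 6.70-fold and 12.5-fold. *Lrrc15* and *Mcpt8* lost their call without I1 (adjusted p = 0.0596 and 0.0589), *Mcpt8* also without E1 (0.0512), and *Anxa8* without B1, I1, M1, N1 or O1 (0.0522 to 0.0592), by edgeR. Without the libraries low in ribosomal protein reads *Tug1*, *Dnm3os*, *Dpysl2*, *Phactr2*, *Dbpht2* and *Mcpt8* did not pass (adjusted p = 0.0516, 0.0656, 0.128, 0.142, 0.0931 and 0.0516, edgeR), and the log2 difference of *Dbpht2* went from -3.53 to -1.86 and that of *Dpysl2* from -2.72 to -1.17. *Lrrc15*, *Mcpt8* and *Anxa8* did not pass without I1 and J1 (0.0743, 0.0751 and 0.0670) and were below the count filter without the *Xist* libraries.

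Genes that the study had found higher in male than in female adipose stem cells fell in part. That list came from the study's own sex comparisons and is no independent evidence of a direction. Of its 23 tested genes 5 were lower (*C7*, *Sult1e1*, *Prrg3*, *Prelp* and *Arl4a*) and 0 higher, with a median log2 difference of -0.49 against 0.03 over all genes. At an unadjusted p below 0.05, 11 were lower and 3 higher, and DESeq2 called 8 lower and 0 higher, limma voom 6 and 0. *Prrg3*, a membrane protein with a Gla domain, ranged from 8.30 to 40.1 CPM, median 29.5, in control and from 1.61 to 13.7, median 4.14, in castrated libraries (log2 -2.04, SE 0.41, adjusted p = 0.00939, edgeR). *Arl4a*, a small GTPase of the ARF family, had medians of 81.5 and 26.8 CPM, and lost its call without B1, F1 or N1 (adjusted p = 0.0507 to 0.0550). *Arl4a* and *Prelp* did not pass without the libraries low in ribosomal protein reads (0.222 and 0.101, edgeR). Other members did not pass: *Ace* had a log2 difference of -1.32, *Ppl* of -2.82, *Angpt1* of -1.51 and *Agt*, the precursor of angiotensin, of 1.10 (adjusted p = 0.0542, 0.0572, 0.104 and 0.165, edgeR). *Ace* passed without A1, I1 or J1 (0.0174 to 0.0447). Of 11 tested female-enriched genes 1, *Xist*, was lower and 0 higher, with 0 higher at an unadjusted p below 0.05 and 0 in either direction by DESeq2 or limma voom. All but 10 of the *Xist* reads came from the 4 control libraries named above, and the call was lost without 11 of the 16 libraries in turn (adjusted p up to 0.0942, without I1), without I1 and J1 together (0.115) and without the libraries low in ribosomal protein reads (0.0656).

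Complement genes moved in both directions. Of 20 tested components and regulators 5 fell (*C7*, *C4b*, *Cfb*, *C1s1* and *Serping1*) and 1 rose (*C5ar1*), with a median log2 difference of -0.47. Over all tested genes 1.83% were lower and 0.860% higher. *C4b*, the substrate of the classical and lectin pathways, had 193 to 537 CPM, median 332, in control and 24.1 to 95.3, median 67.0, in castrated libraries. It fell 5.42-fold (SE of log2 0.27, adjusted p = 1.18e-05, edgeR), with no overlap. *C1s1*, a serine protease of the C1 complex, had medians of 509 and 233 CPM and fell 2.08-fold (adjusted p = 0.0106, edgeR). *Serping1*, the inhibitor of that protease and named here after its values were seen, had 2014 to 3854 CPM, median 2651, against 383 to 1561, median 1119, without overlap (log2 -1.35, SE 0.28, adjusted p = 0.0106, edgeR). *C3*, the central component, had medians of 1787 and 493 CPM with wide spread and did not pass (log2 -1.25, adjusted p = 0.148). *C5ar1*, the receptor of C5a on myeloid cells, rose 2.54-fold from a median of 20.1 to 34.2 CPM, and its call was lost without 8 of the libraries in turn, with the highest adjusted p of 0.101 without I1 (edgeR). It lost its call without each of the 4 sets (0.166 to 0.509), and *Serping1* did not pass without the libraries low in ribosomal protein reads (0.0702). The fall count was 5 without the *Xist* libraries, 5 without I1 and J1 and 4 without the libraries low in ribosomal protein reads.

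**Figure D4:**
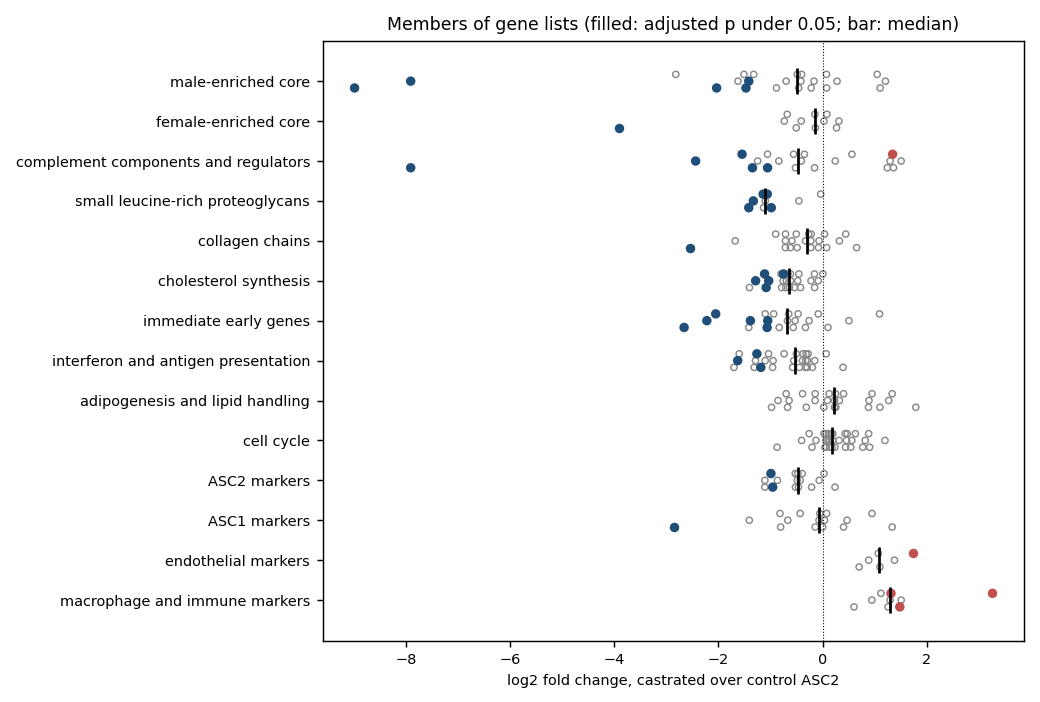
Log2 difference between castrated and control ASC2 of each tested member of the gene lists, with members past the adjusted threshold filled and a line at each list's median. Small leucine-rich proteoglycans lie wholly below 0, with a median of -1.10.

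Of 9 tested small leucine-rich proteoglycans, which bind collagen fibrils, 5 were lower in castrated ASC2 and 0 higher, and 9 of 9 had a negative difference, with a median of -1.10. At an unadjusted p below 0.05, 6 were lower and 0 higher, and DESeq2 and limma voom each called 5 lower and 0 higher. *Dcn*, decorin and a defining fibroblast marker, had 3841 to 8149 CPM, median 6605, in control and 1446 to 5101, median 2404, in castrated libraries (log2 -1.33, SE 0.26, adjusted p = 0.00713, edgeR). *Aspn*, asporin, had medians of 114 and 50.5 CPM (log2 -1.14, adjusted p = 0.0230) and *Ogn*, osteoglycin, of 320 and 134 CPM (log2 -1.06, adjusted p = 0.0212, edgeR). *Prelp*, which anchors basement membranes, had medians of 321 and 118 CPM and lost its call without F1, I1 or N1 (adjusted p = 0.0537 to 0.0548, edgeR). *Omd*, osteomodulin, was the fifth (log2 -0.99, adjusted p = 0.0418, edgeR), named after its values were seen, and kept its call in 5 of the 16 fits that left out 1 library, with an adjusted p up to 0.0886. *Bgn*, biglycan, did not pass and had medians of 4088 and 3862 CPM. The count was 5 without the *Xist* libraries, 2 without I1 and J1, and 0 without the 4 libraries low in ribosomal protein reads, where the list's median was -0.96 log2 and the adjusted p of these 5 ran from 0.0569 for *Dcn* to 0.207 for *Aspn*. Of 22 collagen chains only *Col4a4* passed (log2 -2.55, adjusted p = 0.0200, edgeR), with medians of 13.4 and 1.69 CPM, and it lost its call without the *Xist* libraries, those low in ribosomal protein reads or both *Xist* and *Wt1* sets (0.0758, 0.0594 and 0.127). At an unadjusted p below 0.05, 8 of the 22 chains were lower and 0 higher. Of these chains 17 had a negative difference, and the list's median was -0.30 log2. Of 25 matrix proteases and inhibitors 1 fell and 1 rose. The former was *Plat*, the tissue plasminogen activator, with medians of 729 and 425 CPM (log2 -0.73, SE 0.16, adjusted p = 0.0190, edgeR), whose call was lost without the *Xist* libraries (0.0792) or both sets (0.135). Of 31 elastic fibre and glycoprotein genes 3 fell, *Ltbp1*, *Nid1* and *Cilp*. *Cilp* had medians of 29.0 and 4.95 CPM (log2 -2.20, adjusted p = 0.0212, edgeR) and did not pass without the *Xist* libraries, those low in ribosomal protein reads or both *Xist* and *Wt1* sets (0.147, 0.101 and 0.195). *Ltbp1* kept its call in 10 and *Nid1* in 3 of the 16 fits that left out 1 library, with adjusted p up to 0.0751 and 0.0877, both without I1. *Nid1* lost its call without each of the 4 sets (0.0936 to 0.264), and *Ltbp1* kept it only without the *Xist* libraries (0.0661 to 0.237 otherwise).

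Of 24 tested genes of cholesterol synthesis 5 were lower in castrated ASC2, among them *Msmo1*, *Hmgcs1*, *Sqle* and *Fdft1*, and 0 higher, 23 had a negative difference, and the median was -0.65 log2. At an unadjusted p below 0.05, 14 were lower and 0 higher, where 2100 of all 11046 tested genes reached it in either direction. DESeq2 called 7 lower and 0 higher, limma voom 4 and 0. *Msmo1*, a sterol C4 demethylase, had 70.4 to 147 CPM, median 103, in control and 19.8 to 72.4, median 52.8, in castrated libraries, overlapping only at the edge of the ranges (log2 -1.08, SE 0.23, adjusted p = 0.0132, edgeR) and kept its call whichever single library was left out. *Hmgcs1*, an early synthase of the pathway, had medians of 190 and 92.5 CPM (log2 -1.04, adjusted p = 0.0293, edgeR). *Sqle*, squalene epoxidase, had medians of 68.7 and 33.7 CPM (log2 -1.11, adjusted p = 0.0374, edgeR). *Fdft1*, squalene synthase and named after its values were seen, had medians of 129 and 73.5 CPM (log2 -0.75, adjusted p = 0.0498, edgeR). *Hmgcs1* lost its call without C1, F1, I1 or N1 (0.0547 to 0.0631), *Sqle* without 8 libraries in turn (highest 0.0760, without B1) and *Fdft1* without 12 (highest 0.0985). The count was 4 without the *Xist* libraries, 2 without I1 and J1, and 0 without the libraries low in ribosomal protein reads, where *Msmo1* had an adjusted p of 0.109. *Hmgcs1* and *Fdft1* lost their call without each of the 4 sets (0.0812 to 0.191 and 0.124 to 0.302, edgeR).

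Promoters of *Hmgcs1* and *Msmo1* are shown because sterol-responsive genes are known to carry a sterol regulatory element beside CCAAT boxes. Both are 250 bases upstream of the annotated start, from RefSeq on GRCm38.p6, with *Hmgcs1* on the plus and *Msmo1* on the minus strand.
*Hmgcs1*, chr13:119690101-119690350: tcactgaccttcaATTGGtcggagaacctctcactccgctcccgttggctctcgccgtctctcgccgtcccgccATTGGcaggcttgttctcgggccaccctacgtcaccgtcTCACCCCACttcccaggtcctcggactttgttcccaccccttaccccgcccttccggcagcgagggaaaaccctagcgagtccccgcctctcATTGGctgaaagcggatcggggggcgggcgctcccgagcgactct
*Msmo1*, chr8:64733579-64733828: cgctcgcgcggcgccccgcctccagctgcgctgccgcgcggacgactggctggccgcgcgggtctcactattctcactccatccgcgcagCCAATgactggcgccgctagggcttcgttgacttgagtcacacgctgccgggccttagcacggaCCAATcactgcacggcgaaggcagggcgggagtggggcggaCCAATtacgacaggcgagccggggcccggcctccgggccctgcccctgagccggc
Capitals mark CCAAT on either strand and, in *Hmgcs1*, TCACNCCAC. CCAAT was present in 16 of 16 matched promoters of the cholesterol list and in 40.9% of all matched promoters, and TCACNCCAC in 1 of the 16 and in 1.21% of all.

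Of 21 tested immediate early genes, which are induced within minutes by growth factors or stress, 6 were lower in castrated ASC2 (*Btg2*, *Egr2*, *Fosb*, *Zfp36*, *Nr4a1* and *Fos*) and 0 higher, with a median log2 difference of -0.68. At an unadjusted p below 0.05, 10 were lower and 0 higher, and DESeq2 called 7 lower and 0 higher, limma voom 6 and 0. *Btg2*, an antiproliferative gene, had 99.0 to 393 CPM, median 131, in control and 18.8 to 113, median 21.9, in castrated libraries (log2 -2.22, SE 0.38, adjusted p = 0.00235, edgeR). Its highest values were in D1 and K1, and only K1 among castrated libraries reached the control range. *Egr2*, a zinc finger transcription factor, had medians of 213 and 95.2 CPM (log2 -1.05, adjusted p = 0.00922), *Fosb* of 84.7 and 12.5 CPM (log2 -2.66, adjusted p = 0.0106) and *Zfp36*, which destabilises mRNAs of cytokines, of 247 and 79.4 CPM (log2 -1.39, adjusted p = 0.0131, edgeR). *Nr4a1* and *Fos*, named after their values were seen, had log2 differences of -2.05 and -1.07 (adjusted p = 0.0206 and 0.0394, edgeR), and *Fos* kept its call in 6 of the 16 fits that left out 1 library, with an adjusted p up to 0.0745. The count was 4 without the *Xist* libraries, 4 without I1 and J1, and 2 without the libraries low in ribosomal protein reads, where *Egr2*, *Fosb*, *Nr4a1* and *Fos* had adjusted p of 0.104, 0.102, 0.151 and 0.109. *Zfp36* did not pass without the *Xist* libraries (0.0586), and *Fos* lost its call without each of the 4 sets (up to 0.270, edgeR).

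Of 28 tested interferon-induced and antigen presentation genes 3 were lower and 0 higher, and 26 had a negative difference, with a median of -0.53 log2. At an unadjusted p below 0.05, 12 were lower and 0 higher, and DESeq2 called 6 lower and 0 higher, limma voom 2 and 0. *Irf7*, a transcription factor of the interferon response, ranged from 250 to 883 CPM, median 360, in control and from 84.7 to 391, median 136, in castrated libraries (log2 -1.26, SE 0.31, adjusted p = 0.0285, edgeR). The highest library was B1 in control and L1 in castrated mice for *Irf7* and for the GTPase *Igtp*. *Iigp1* and *Igtp*, GTPases that act on intracellular pathogens, had log2 differences of -1.63 and -1.19 (adjusted p = 0.0369 and 0.0486, edgeR). *Irf7* lost its call without B1, I1, M1, N1, O1 or P1 (highest adjusted p 0.0699), *Iigp1* without 10 and *Igtp* without 11 of the libraries in turn (highest 0.0943 and 0.117, both without B1). Without the *Xist* libraries 9 members were lower, and without the libraries low in ribosomal protein reads 0 were. *Iigp1* and *Igtp* did not pass without I1 and J1 either (0.0759 and 0.0919).

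Genes of steroid and angiotensin signalling gave few calls beyond *Sult1e1*. *Esr1*, the oestrogen receptor alpha, had medians of 20.1 and 17.3 CPM and did not pass (adjusted p = 0.467, edgeR). Of 17 tested steroid receptors and enzymes 1 fell, *Sult1e1*, and 1 rose. The latter was *Akr1c18*, an aldo-keto reductase that inactivates progesterone, with 109 to 456 CPM, median 190, in control and 286 to 4568, median 527, in castrated libraries. K1 held the highest value, and the groups overlapped (log2 2.16, SE 0.50, adjusted p = 0.0244, edgeR), with the call lost among single libraries without F1 alone (0.0510), and also without the *Xist* libraries (0.130), those low in ribosomal protein reads (0.105) or both *Xist* and *Wt1* sets (0.0740). By DESeq2 the log2 difference of *Akr1c18* was 1.05 (adjusted p = 0.00281). Of 14 tested androgen response genes *Mme* and *Tsc22d3* fell and *Odc1* rose. *Mme*, the peptidase neprilysin, had medians of 42.5 and 14.9 CPM (log2 -1.53, adjusted p = 0.0107, edgeR). *Tsc22d3*, also a glucocorticoid target and the single call among 14 such genes, had a log2 difference of -0.98 (adjusted p = 0.0357, edgeR) and passed in 6 of the 16 fits that left out 1 library, with an adjusted p up to 0.0709 without F1. *Odc1*, which makes polyamines, had medians of 19.5 and 54.7 CPM (log2 1.47, adjusted p = 0.0321, edgeR) and passed in 8 of those fits (highest 0.0693, without B1). Without the libraries low in ribosomal protein reads *Mme*, *Odc1* and *Tsc22d3* did not pass (0.101, 0.101 and 0.323, edgeR). *Fkbp5*, a classical androgen and glucocorticoid target, had medians of 54.1 and 51.9 CPM and did not pass (adjusted p = 0.379, edgeR). Of 16 genes of the renin-angiotensin-aldosterone system *Mme* and *Agtr2* fell. *Agtr2*, the type 2 angiotensin receptor, had 105 to 339 CPM, median 197, in control and 3.05 to 114, median 61.1, in castrated libraries (log2 -2.08, SE 0.51, adjusted p = 0.0295, edgeR), and lost its call without F1 (0.0578) or N1 (0.0548). Its log2 difference was -1.44 without the *Xist* libraries (adjusted p = 0.198), -1.98 without those low in ribosomal protein reads (0.0873) and -1.02 without both *Xist* and *Wt1* sets (0.240, edgeR).

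Genes that rose in castrated ASC2 and held in every fit without the doubted libraries were few and of mixed function. The 9 included *Egfl7*, *Slc25a3*, *H2-Aa* and *Hmox1*, which did not overlap between the groups, and *Pgam1* and *Txnrd1*, which did. *Hmox1*, haem oxygenase 1, had 69.5 to 328 CPM, median 233, in control and 416 to 1412, median 512, in castrated libraries, with the highest value in K1 (log2 1.56, adjusted p = 0.00516, edgeR). *Egfl7*, a secreted protein best known from endothelium, had 9.52 to 32.4 CPM, median 14.9, against 36.6 to 73.2, median 59.0, a 3.01-fold rise (adjusted p = 0.00167, edgeR). *Slc25a3*, the mitochondrial phosphate carrier, had 53.5 to 114 CPM, median 69.3, against 124 to 210, median 144, a 2.23-fold rise (adjusted p = 0.00196, edgeR). *Pgam1*, a glycolytic enzyme, and *Txnrd1*, thioredoxin reductase 1, were named after their values were seen and rose 1.99-fold and 2.09-fold (adjusted p = 0.00725 and 0.0200, edgeR). The largest rises also held *Ptx3*, a pattern recognition protein (medians of 3.01 and 18.1 CPM, adjusted p = 0.0107, edgeR), and *Dhps*, which modifies the translation factor eIF5A (3.42 and 17.1 CPM, adjusted p = 0.0230, edgeR). *Ptx3* did not pass without I1 and J1 (0.0586), and neither *Ptx3* nor *Dhps* without the libraries low in ribosomal protein reads (both 0.104) or without both *Xist* and *Wt1* sets (0.0703 and 0.0746). *Tnfrsf11b*, osteoprotegerin, had 3 control and 66 castrated reads, a ratio of control to castrated levels of 0.0378 with a 95% interval of 0.00759 to 0.115 that covers counting error only (adjusted p = 0.0230, edgeR). Its levels were 16.6 CPM in I1, 39.9 in J1 and 16.8 in K1, from 1.01 to 8.04 in L1, M1 and P1, and 0 in N1 and O1. It passed in 12 of the 16 fits that left out 1 library, did not pass without the *Xist* libraries (0.0678) and was below the count filter without I1 and J1 or without the libraries low in ribosomal protein reads. *Ndufa4l2* was highest in I1 and J1 (49.9 and 94.9 CPM, against 0 to 19.2 in the other castrated libraries), and its adjusted p of 0.0190 became 0.0832 to 0.229 without the 4 sets (edgeR). *Asic3* had 127 and 121 CPM in I1 and J1 against 0 to 9.76 in the other castrated and 0 to 8.30 in the control libraries, with a log2 difference of 3.34 by edgeR (adjusted p = 0.0412) and 0.36 by DESeq2. *Gsta4*, a glutathione transferase, had a log2 difference of 2.19 (adjusted p = 0.0415, edgeR) and passed of the 4 sets only without I1 and J1 (0.0534 to 0.173 otherwise). Its level was 363 CPM in K1, where the castrated median was 45.3. By DESeq2 the log2 difference of *Gsta4* was 1.21 (adjusted p = 0.0532), and limma voom did not call it either (0.0815). *Gsta4* and *Asic3* each kept their call in 7 of the 16 fits that left out 1 library, with the highest adjusted p of 0.0990 without K1 and of 0.122 without I1, and *Dhps* lost it without N1 (0.0521).

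**Figure D5:**
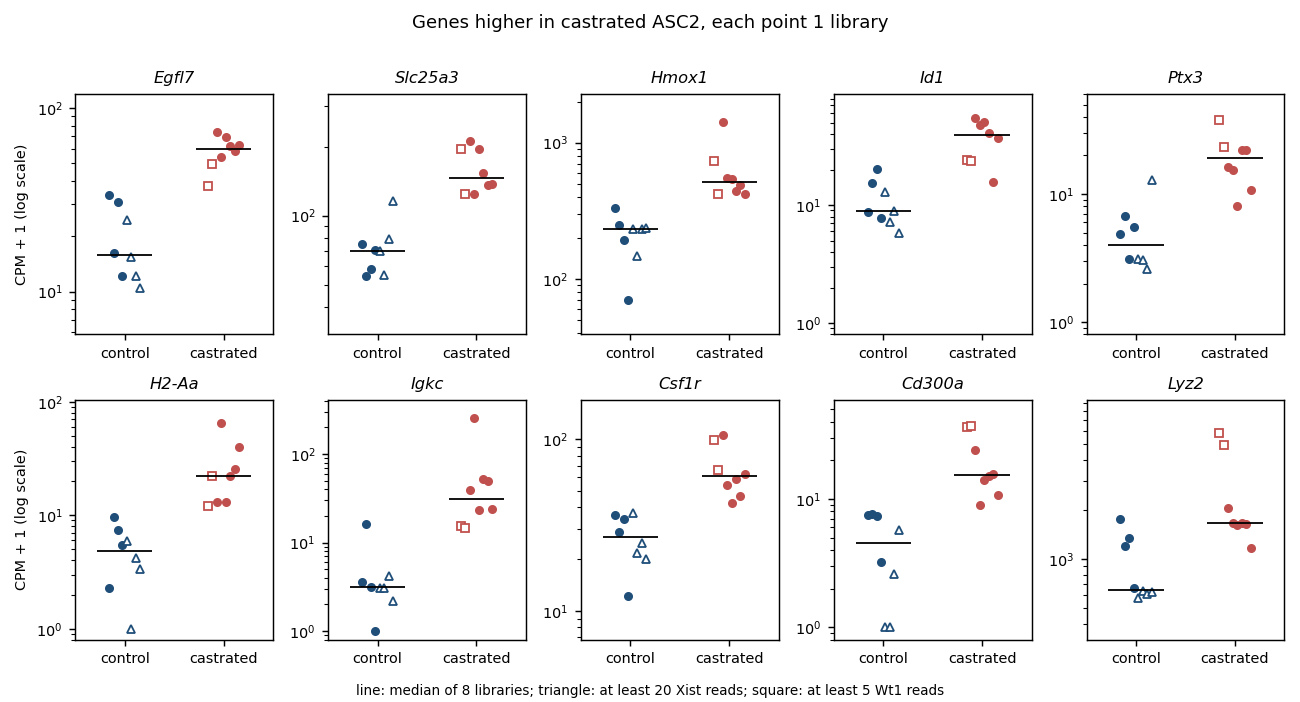
Level of genes higher in castrated ASC2, as CPM plus 1 on a log axis, 1 point a library and a line at each group's median. Castrated libraries of *Egfl7* lie between 36.6 and 73.2 CPM, above the control range of 9.52 to 32.4; triangles mark libraries with at least 20 *Xist* reads and squares those with at least 5 *Wt1* reads.

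Some transcripts of leukocytes and endothelium were higher in castrated libraries, although the sort left out CD45+ and CD31+ cells. In such bulk samples, fewer cells of a type and less RNA per cell cannot be told apart. Of 9 tested macrophage and immune markers 3 rose (*Cd79a*, *Csf1r* and *Lyz2*) and 0 fell, with a median log2 difference of 1.29, and 0 were lower at an unadjusted p below 0.05 or by DESeq2 or limma voom. The summed list ranged from 745 to 2020 CPM, median 841, in control and from 1421 to 6865, median 1986, in castrated libraries (adjusted p = 0.00932, two-sided exact permutation test, adjusted over 16 library measures). *Lyz2* alone held a mean of 922 of 1143 CPM in control and of 2574 of 3089 CPM in castrated libraries. The sum did not pass without the *Xist* libraries (0.121), those low in ribosomal protein reads (0.101) or both *Xist* and *Wt1* sets (0.208, exact permutation test). *Csf1r*, the receptor that sustains macrophages, had 11.2 to 36.2 CPM, median 25.8, against 41.2 to 105, median 59.7, without overlap (log2 1.31, SE 0.25, adjusted p = 0.00713, edgeR). *Lyz2*, macrophage lysozyme, had medians of 646 and 1655 CPM and lost its call without D1, F1 or I1 (adjusted p = 0.0509 to 0.0683, edgeR) and without each of the 4 sets (lowest 0.119), with a log2 difference of 1.48 in all libraries and 0.40 without both *Xist* and *Wt1* sets. *Cd79a* and *Igkc*, of B cells, and *H2-Aa*, an MHC class II chain, rose as well, with medians from 0 to 11.9, from 2.11 to 30.4 and from 3.84 to 21.1 CPM (adjusted p = 0.0174, 0.00345 and 0.00516, edgeR). *Cd79a* did not pass without the *Xist* libraries, those low in ribosomal protein reads or both *Xist* and *Wt1* sets (0.107, 0.104 and 0.0831), nor *Igkc* without the *Xist* libraries (0.0521). *Ptprc*, which encodes the CD45 that the sort excluded, had 47 control and 75 castrated reads and did not pass, *Cd3e* 4 and 8, and *Cd163* 6 and 3. The count was 1 without the *Xist* libraries, 2 without I1 and J1, and 0 by edgeR without both sets, where the list's median was 0.17, or without the libraries low in ribosomal protein reads. Other myeloid or leukocyte genes among the largest rises were *Cd300a*, *Rac2*, *Myo1f*, *Tyrobp*, *Ly86*, *Ninj1*, *Pstpip1* and *Lat2*. Of these *Tyrobp* and *Ly86* lost their call without I1 (0.0596 and 0.0798), *Ninj1* without F1 or I1 (highest 0.0596), *Pstpip1* without F1, I1 or J1 (highest 0.0957) and *Lat2* without 12 libraries in turn (highest 0.145, without I1), by edgeR. *Myo1f* was highest in I1 and J1, with 78.7 and 61.2 CPM against 8.73 to 21.2 in the other castrated libraries. *Cd300a* and *Myo1f* lost their call without each of the 4 sets (0.0631 to 0.169 and 0.0560 to 0.138), as did *Tyrobp*, *Ly86*, *Ninj1*, *Pstpip1* and *Lat2*, and *Rac2* kept it only without I1 and J1 (0.0517 to 0.124 otherwise, edgeR).

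The summed endothelial markers ranged from 18.7 to 68.7 CPM, median 51.4, in control and from 78.2 to 172, median 108, in castrated libraries, without overlap (adjusted p = 0.00166, two-sided exact permutation test, whose raw p of 0.000155 is the smallest that 12870 splits can give). Of 6 tested members *Kdr*, a VEGF receptor, rose and 0 fell, also at an unadjusted p below 0.05 and by DESeq2 or limma voom, and the median log2 difference was 1.08. *Kdr* had medians of 4.34 and 14.4 CPM (adjusted p = 0.0353, edgeR) and kept its call in 9 of the 16 fits that left out 1 library, with an adjusted p up to 0.0670 without F1. Of the 4 sets it passed only without I1 and J1 (0.0888 to 0.154 otherwise). *Pecam1*, which encodes the CD31 that the sort excluded, ranged from 6.22 to 32.4 CPM in control and from 11.2 to 54.7 in castrated libraries and did not pass (adjusted p = 0.0889, edgeR). *Vwf* and *Aqp1*, of endothelium, and *Notch3*, of mural cells, rose with medians from 0.88 to 12.1, from 5.26 to 24.4 and from 4.19 to 13.8 CPM (adjusted p = 0.0405, 0.0331 and 0.0439, edgeR), and were called in 4, 10 and 2 of those 16 fits (highest 0.0881, 0.106 and 0.103, each without I1). None of the 3 passed without any of the 4 sets (0.0694 to 0.443). *Notch3* was the single edgeR call among 9 mural markers, while DESeq2 and limma voom each called 1 lower and 2 higher. At an unadjusted p below 0.05, 1 mural marker was lower and 3 were higher. *Rgs5*, a member of that list, had 65 control and 12 castrated reads. The summed mesothelial markers were higher in castrated libraries, 26.2 to 88.6 against 0 to 27.1 CPM (adjusted p = 0.00166, exact permutation test). Much of the sum was *Krt19*, a keratin that is also in the mammary list. It had a mean of 15.7 of 17.4 CPM in control and of 28.7 of 50.4 CPM in castrated libraries. *Wt1* and *Upk1b* had 0 reads in all control libraries. Their castrated reads lay in I1 and J1, apart from 2 of *Upk1b* in L1. Summed markers of lymphatic endothelium, mural cells, adipocytes, mammary epithelium and Schwann cells did not pass (adjusted p from 0.287 to 0.995, exact permutation test), and *Krt5* had no read. The part of these other cells in the rises was not tested.

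The sum of the ASC2 markers ranged from 4052 to 7734 CPM, median 5682, in control and from 1793 to 6270, median 3210, in castrated libraries (adjusted p = 0.0264, exact permutation test). Its member *Pi16* held a mean of 2950 of 5665 CPM in control and of 1617 of 3592 CPM in castrated libraries. The sum did not pass without the *Xist* libraries (0.0924), those low in ribosomal protein reads (0.179), I1 and J1 (0.0728) or both *Xist* and *Wt1* sets (0.171, exact permutation test). That of the fibroblast markers had medians of 17711 and 10436 CPM (adjusted p = 0.00166, exact permutation test), and did not pass without both sets (0.0508). Of 16 tested ASC2 markers 2 fell and 0 rose, *Tek*, the angiopoietin receptor, and *Dpp4*, with a median of -0.48 over the list. *Tek* had medians of 119 and 60.1 CPM and kept its call whichever library or set was left out (log2 -0.99, SE 0.22, adjusted p = 0.0174, edgeR). *Dpp4*, the gene of the sort antigen, had 123 to 344 CPM, median 236, against 49.3 to 226, median 112 (log2 -0.96, SE 0.26, adjusted p = 0.0493, edgeR), and passed in 3 of the 16 fits that left out 1 library (highest 0.0858, without N1). It lost its call without each of the 4 sets (0.0873 to 0.177). No ASC2 marker rose at an unadjusted p below 0.05 or by DESeq2 or limma voom. Of 16 tested ASC1 markers, the genes of the DPP4- population, *Gdf10* fell and 0 rose. At an unadjusted p below 0.05, 4 ASC1 markers were lower and 2 higher. The sum of that list did not pass (adjusted p = 0.882, exact permutation test).

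Signalling lists gave scattered calls, which stand against 1.83% lower and 0.860% higher over all tested genes. Among 30 chemokines and cytokines with their receptors *Il1r2* and *Cxcl13* fell. *Cxcl13*, which attracts B cells, had medians of 55.1 and 8.39 CPM (log2 -2.34, SE 0.45, adjusted p = 0.00713, edgeR), and did not pass without the libraries low in ribosomal protein reads (log2 -1.68, 0.104). *H19* was the call among 11 genes of the IGF system, *Dkk3* among 24 of the Wnt pathway, and *Tek* (lower) and *Kdr* (higher) among 16 angiogenic ligands and receptors. Among 27 genes of the TGF-beta and BMP pathway *Gdf10* fell and *Id1*, a direct BMP target, rose from a median of 7.88 to 38.0 CPM (log2 1.78, SE 0.32, adjusted p = 0.00446, edgeR, and 0.0507 without the *Xist* libraries). No adipogenesis gene passed of 25 tested by edgeR. At an unadjusted p below 0.05, 3 of them were lower and 7 higher, and DESeq2 called 1 lower and 2 higher. *Pparg*, the master regulator of adipogenesis, had medians of 47.9 and 36.3 CPM (adjusted p = 0.874, edgeR). No cell cycle gene passed of 32 tested by edgeR, where 1 was lower and 8 higher at an unadjusted p below 0.05 and DESeq2 called 0 lower and 2 higher. The acute phase list had 0 calls of 8 tested, with 2 higher at an unadjusted p below 0.05 and 1 higher by DESeq2. Its sum was 1070 to 1274 CPM in I1 and J1 against 104.5 to 326.6 in the other 14 libraries. Without I1 and J1, 2 members were lower and 0 higher by edgeR, and the list's median went from -0.05 to -1.12 log2. Without both *Xist* and *Wt1* sets 1 was lower and 0 higher, with a median of -0.99. The *Hox* lists had 0 calls of 6 and 2 tested, the Y-chromosome list 0 of 4, and adipocyte, mammary, mesothelial and Schwann markers 0 of 2, 7, 1 and 1, while no lymphatic marker passed the filter. Of the lists from *Hox* to Schwann markers, 2 mammary markers reached an unadjusted p below 0.05, both lower, no other member did, and none was called by DESeq2 or limma voom. The Y-chromosome genes *Uty*, *Ddx3y*, *Eif2s3y* and *Kdm5d* had adjusted p from 0.647 to 0.982 (edgeR), and the sign of all but *Uty* turned without the *Xist* libraries.

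The same contrast in ASC1, the DPP4- cells, in 8 castrated and 7 control libraries, was used to see where the ASC2 response differed. By an interaction term over the 31 libraries, the difference between castrated and control libraries was not the same in ASC2 and ASC1 in 315 of 11873 genes (2.65%, edgeR, Benjamini-Hochberg). Of these 124 were lower in ASC2 relative to ASC1 and 191 higher. Among the 202 genes lower in ASC2, 39 passed this test, 153 had a negative difference in ASC1 too and 30 were also called lower there. Among the 95 higher genes 41 passed, 46 had a positive difference in ASC1 and 1 was called. *Il1r2*, *C7*, *C4b*, *Gdf10* and *Inmt* had log2 differences of -3.47, -6.09, -1.67, -1.93 and -1.94 in ASC1, and none of these differed from ASC2 at the threshold (adjusted p from 0.177 to 0.712, edgeR). *Hmox1* had a log2 difference of -0.32 in ASC1 against 1.56 in ASC2, a gap of 1.85 (SE 0.38, adjusted p = 0.00484, edgeR). *Dkk3* had 0.12 in ASC1 and -1.99 in ASC2, a gap of -2.12 (SE 0.46, adjusted p = 0.00777, edgeR). *Cilp* rose in ASC1 (2.12) and fell in ASC2, a gap of -4.34 (SE 0.63, adjusted p = 1.41e-04, edgeR). *Adh1*, *C1s1* and *Sqle* were lower in ASC2 relative to ASC1, with gaps of -1.10, -1.17 and -1.87 and adjusted p of 0.0316, 0.0285 and 0.00185 (edgeR). *Lyz2*, *Rac2* and *Myo1f* fell in ASC1 and rose in ASC2, with gaps of 3.50, 3.87 and 4.95 (adjusted p = 0.00207, 0.00123 and 9.07e-04, edgeR). *Dpp4* rose in ASC1 (1.87), with a gap of -2.85 (adjusted p = 0.00488, edgeR). All 8 castrated ASC1 libraries went against their male label. They held 13 to 97 *Xist* reads and 0 to 4 Y-chromosome reads each, 8 in all. Castrated ASC2 libraries held 0 to 5 and 21 to 75. Control ASC1 libraries were mixed, with 0 to 82 *Xist* reads and 187 Y-chromosome reads in all. At least 5 *Wt1* reads were found in 5 of 8 castrated and 2 of 7 control ASC1 libraries. Population and these library differences cannot be told apart in the gaps above, and their part was not tested.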

How the data were processed

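The authors trimmed reads with NGmerge, checked them with STAR 2.7.10a, quantified them with Salmon 1.9.0 against Gencode transcripts of GRCm39, adding reads with and without a molecular identifier, and removed libraries with fewer than 8500 genes. The deposited values are estimated counts per gene, of which 15.0% of those above 0 were not whole. They were rounded, and a gene was tested where more than 3 of the 16 libraries each held 5 or more of its reads. Groups came from the sample titles. Castrated and control ASC2 were compared with edgeR 4.0.16 (TMM, quasi-likelihood test, Benjamini-Hochberg adjustment, R 4.3.3), and the difference from ASC1 by an interaction term over 4 male groups. The study itself used DESeq2. DESeq2 1.42.0 and limma 3.58.1 were alternatives. Library sums were compared by two-sided exact permutation tests (scipy 1.17.1), adjusted over 16 measures. Shown levels are TMM-scaled CPM. Scripts were tested on simulated data. No 2 libraries of a group were copies of each other.

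Named genes were, in each direction, the 20 of largest fold (mean of at least 10 CPM in the higher group, a read in at least 6 of its libraries), the 10 of smallest p, up to 4 past the threshold in each list, the study's castration genes, and *Dpp4*, *Esr1*, *Xist* and 4 Y-chromosome genes. Some genes that the rule chose are not reported here. Members and lists were chosen with earlier results of these data known.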

Additional observations from a re-analysis of the deposited data

Results flagged for a closer look

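A value in 1 library stood apart from the other 7 of its group, by Dixon's test at 95%, in 40 of 212 groups checked. The 212 groups covered named genes and library measures together, and all 40 values were those of genes. The test assumes normally distributed values, and these were CPM on a linear scale, some from few reads. Genes of a library are also not independent, so the count cannot be set against a share expected by chance. The values are in CPM, and no explanation was tested. Control library D1 stood apart with 1673 for *C7*, 393 for *Btg2*, 348 for *Fosb*, 89.7 for *Mme*, 3107 for *Tug1*, 926 for *Dnm3os*, 899 for *Phactr2*, 13521 for *Ccdc80*, 14504 for *Dpysl2*, 642 for *Ltbp1* and 38.1 for *Angpt1*. Castrated library K1 stood apart with 113 for *Btg2*, 1412 for *Hmox1*, 4568 for *Akr1c18*, 74.7 for *Arl4a*, 6.1 for *Anxa8*, 142 for *Odc1* and 363 for *Gsta4*. Control library B1 stood apart with 15.3 for *Igkc*, 5.73 for *Cd79a*, 883 for *Irf7*, 12.4 for *Notch3* and 183 for *Igtp*. Castrated library J1 stood apart with 240 for *Tug1*, 114 for *Dnm3os*, 39.9 for *Tnfrsf11b*, 1628 for *Ccdc80* and 1464 for *Dpysl2*. Castrated library L1 stood apart with 257 for *Igkc*, 391 for *Irf7*, 75.6 for *Iigp1* and 80.4 for *Igtp*. Castrated library I1 stood apart with 1.11 for *Tdo2* and 55.4 for *Aqp1*. Control library H1 stood apart with 114 for *Slc25a3* and 11.9 for *Ptx3*. Control library A1 stood apart with 11.7 for *Vwf*. Castrated library M1 stood apart with 6.04 for *Gdf10*. Castrated library O1 stood apart with 8.14 for *Xist*. Castrated library P1 stood apart with 65 for *Fosb*. D1 and J1 are among the libraries low in ribosomal protein reads.

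The log2 difference between castrated and control libraries was not the same in ASC2 and ASC1 for 32 of the named genes, by the interaction term (edgeR, adjusted p below 0.05). The value of ASC2 minus that of ASC1 was -1.10 for *Adh1*, -2.12 for *Dkk3*, -2.67 for *Btg2*, -1.17 for *C1s1*, -2.44 for *Tug1*, -2.75 for *Dnm3os*, -4.34 for *Cilp*, -2.68 for *Ccdc80*, -1.54 for *Irf7*, -1.87 for *Sqle*, -5.21 for *Xist* and -2.85 for *Dpp4*. It was 1.60 for *Egfl7*, 3.32 for *Igkc*, 1.85 for *Hmox1*, 3.87 for *Rac2*, 1.80 for *Csf1r*, 4.95 for *Myo1f*, 4.69 for *Cd300a*, 3.59 for *Tyrobp*, 3.53 for *Akr1c18*, 3.39 for *Ly86*, 2.58 for *Ninj1*, 3.50 for *Lyz2*, 3.71 for *Aqp1*, 2.77 for *C5ar1*, 3.09 for *Gsta4*, 2.93 for *Notch3*, 5.34 for *Lat2*, 5.62 for *Agt*, 4.50 for *Ddx3y* and 3.97 for *Eif2s3y*. Among them *Lyz2*, *Csf1r*, *Tyrobp*, *Cd300a*, *Rac2*, *Myo1f*, *Ly86*, *Lat2* and *C5ar1* are genes of myeloid or other leukocytes, and *Xist*, *Ddx3y* and *Eif2s3y* are sex-chromosome transcripts.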

How the results depend on the processing

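Sequencing depth limits what can be said of weakly expressed genes, and the labels name no animals. Leaving out the *Wt1* libraries, the libraries low in ribosomal protein reads or the *Xist* and *Wt1* sets together was chosen after seeing the data. The counts of 202 lower and 95 higher genes became 380 and 203 with no filter on counts, 538 and 330 with all 58 libraries in 1 fit, 401 and 266 with DESeq2, and 54 and 13 without the libraries low in ribosomal protein reads, and the higher count 50 without I1 and J1. Robust estimation gave 158 and 83 and limma voom 160 and 85. Leaving out 1 library at a time gave 105 (without N1) to 274 (G1) lower and 37 (I1) to 123 (K1) higher genes. Lower counts of 105 to 131 came without B1, D1, F1, I1, N1 or O1, and higher counts of 37 to 61 without B1, C1, D1, F1, I1 or N1. All 16 such fits shared 95 of the 202 lower and 26 of the 95 higher genes. The 5 male-enriched genes became 8 with all 58 libraries or DESeq2, 3 without the libraries low in ribosomal protein reads, and 3 (without N1) to 7 (A1) without 1 library. The 1 female-enriched gene, *Xist*, became 0 with filterByExpr, robust estimation, DESeq2, limma voom and without the *Xist*, *Wt1* or low ribosomal protein libraries or without both the *Xist* and *Wt1* sets, and 0 to 1 without 1 library. The interaction count of 315 became 486 with DESeq2, and 224 with the plate row as a replicate block, a pairing that the labels do not state.

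Of the 97 genes that the naming rule chose, calls were lost for 12 with robust estimation and 21 with limma voom. Fewer could be compared without libraries, as genes below the count filter there were not counted. Calls were lost for 30 of 92 without the *Xist* libraries and 53 of 96 without the low ribosomal protein ones. They were lost for 28 of 95 without the *Wt1* libraries and 33 of 90 without *Xist* and *Wt1* libraries. Of the named genes that did not pass, 5 turned direction. Log2 differences became 0.21 for *Esr1* without low ribosomal protein libraries, 0.33 for *Uty* with limma voom, -0.40 for *Ddx3y*, -0.68 for *Eif2s3y* and -0.53 for *Kdm5d* without the *Xist* libraries, -0.47, -0.65 and -0.54 for the same 3 without *Xist* and *Wt1* libraries, and -0.32 for *Kdm5d* without low ribosomal protein libraries. Without 1 library *Eif2s3y* ranged from -0.11 to 0.32 and *Kdm5d* from -0.18 to 0.48, with other turned values up to -0.02 and -0.05. Of library sums, in CPM of castrated minus control, that of the ASC2 markers no longer passed without the *Xist* (-2191), low ribosomal protein (-1617), *Wt1* (-1948) or both *Xist* and *Wt1* (-2065) libraries, that of the fibroblast markers without both sets (-6839), and that of the immune markers without the *Xist* (1573), low ribosomal protein (1502) or both sets (453). Mural markers passed without the *Xist* libraries (497) and turned without the low ribosomal protein ones (-29.0). Sums that did not pass over all 16 libraries turned too. ASC1 markers became -80.4, -136, -371 and -585 and adipocyte markers -9.19, -5.05, -11.7 and -20.9 without the *Xist*, low ribosomal protein, *Wt1* or both libraries, where adipocyte markers passed in the last 2 (adjusted p = 0.0405 and 0.0305, exact permutation test). Without the *Xist* set, and then without both, mammary markers became 33.9 and 37.8, Y-chromosome genes -46.8 and -49.1 and *Xist* 1.96 and 2.61, and the first 2 of these passed (adjusted p = 0.0162 and 0.0305 for each, exact permutation test). Genes detected became 131 more without the *Xist* set, and without *Wt1* libraries Schwann markers became 0.14 and Y-chromosome genes -1.70.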
